A study of Mus musculus with 14 samples.

Results

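The negative acute phase genes examined here were 10 liver genes whose secreted products are albumin and the plasma proteins that classically go down with it during inflammation: Alb, Ttr, Rbp4, Apoa1, Apoa2, Trf, Serpina6, Ahsg, Fetub and Pon1. They were chosen by name, as the probe sets annotated to exactly 1 gene symbol that is on this list, and each had a single such probe set. They are 10 of the 19938 genes that had a probe set of their own on the array.

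Liver RNA was profiled on Affymetrix mouse gene arrays in 14 male C57BL/6 mice of 24 weeks of age, all kept on a high-fat diet for 20 weeks, with 1 array per mouse. In the HFM group, 7 mice received mesenchymal stem cells (MSCs) 24 h before the liver was taken, and in the HFS group 7 mice received the vehicle, saline, over the same time. The MSCs were human, from bone marrow, came from a single donor and were given through the tail vein. No mice on a normal diet and no uninjected mice were in the series, so both groups share the diet and the injection, and a p value compares the difference between groups with the spread between mice within them.

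The acute phase response is the change in liver secretion that follows inflammatory cytokines such as interleukin 6 and interleukin 1. Hepatocytes raise the positive acute phase proteins, among them serum amyloid A, haptoglobin and the orosomucoids, and lower a second set, the negative acute phase proteins. The lowered set includes the main osmotic protein of plasma (albumin), carriers of thyroid hormone, retinol, iron and glucocorticoid, both major apolipoproteins of high-density lipoprotein (HDL), the fetuins and the HDL-bound enzyme paraoxonase 1. Hepatocyte transcription of these genes depends on factors such as HNF1, HNF4, FOXA proteins and C/EBP proteins.

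Values are log2 expression per probe set as deposited, so a difference of 1 is a doubling, and a level is not comparable between probe sets. Over the series, values ran from 1.33 to 14.06, array medians from 4.24 to 4.35, and pairs of arrays correlated at 0.979 to 0.995. Differences are HFM minus HFS from limma over 23410 probe sets with a gene symbol, with p values adjusted over all of them by the Benjamini-Hochberg method. No probe set passed an adjusted p of 0.05 (0 of 23410), while 1514 (6.47%) passed an unadjusted p of 0.05. Hepatocyte enzymes that are not secreted were high in both groups, with mean marker levels of 10.27 to 10.62 in HFM and 10.06 to 10.71 in HFS mice, and none of the 10 measured passed an unadjusted p of 0.05, although 8 had a difference above 0 and their median was 0.11. With the median of each array subtracted, and without HFM5 or HFS6, 1 was higher. In whole liver, fewer cells of a type and less RNA per cell cannot be told apart.

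The stretches of DNA just upstream of 4 members are shown because these genes span the results below: Pon1 and Fetub had the largest differences between groups, Alb the smallest spread between mice, and Ahsg is the genomic neighbour of Fetub. Each is the 250 bases before a RefSeq transcription start on GRCm38.p6, read on the strand of the gene, with motif matches in capitals.
Alb, chr5:90460620-90460869, + strand: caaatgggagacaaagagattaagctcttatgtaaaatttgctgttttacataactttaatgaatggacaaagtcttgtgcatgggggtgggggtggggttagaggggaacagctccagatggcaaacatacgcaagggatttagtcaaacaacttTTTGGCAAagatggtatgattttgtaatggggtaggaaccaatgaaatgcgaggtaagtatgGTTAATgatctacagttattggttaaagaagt
Pon1, chr6:5193947-5194196, - strand: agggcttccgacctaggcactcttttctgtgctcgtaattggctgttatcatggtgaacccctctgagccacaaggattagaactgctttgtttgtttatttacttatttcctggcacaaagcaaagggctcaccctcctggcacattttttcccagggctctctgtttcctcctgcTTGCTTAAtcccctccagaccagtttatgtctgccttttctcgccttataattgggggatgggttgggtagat
Ahsg, chr16:22891765-22892014, + strand: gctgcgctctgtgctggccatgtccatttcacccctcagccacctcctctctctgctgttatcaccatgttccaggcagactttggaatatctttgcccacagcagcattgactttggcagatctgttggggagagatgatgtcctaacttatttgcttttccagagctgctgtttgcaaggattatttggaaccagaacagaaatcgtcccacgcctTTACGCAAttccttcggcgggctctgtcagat
Fetub, chr16:22918132-22918381, + strand: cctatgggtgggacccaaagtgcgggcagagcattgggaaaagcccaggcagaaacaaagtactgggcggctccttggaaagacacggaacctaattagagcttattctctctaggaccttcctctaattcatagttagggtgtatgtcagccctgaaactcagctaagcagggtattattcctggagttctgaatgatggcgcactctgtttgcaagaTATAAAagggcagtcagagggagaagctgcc

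The capitals mark the C/EBP letters TTGCNNAA (on either strand) in Alb, Pon1 and Ahsg, which begin 94, 73 and 32 bases before the start, respectively. In Alb they also mark GTTAAT, the left part of the HNF1 motif, 32 bases before the start, and in Fetub TATAAA, 31 bases before it. Of 32851 RefSeq windows of this length, 9.56% held TTGCNNAA, 6.43% held GTTAAT and 12.4% held TATAAA, each searched on both strands. The full palindromic HNF1 motif, which contains GTTAAT, was in 0.00913% of windows, the HNF4 letters CAAAGTCCA in 0.384% and the FOXA letters TGTTTAC in 3.17%. Of the windows found for members, 10 in all since Apoa2, Fetub and Rbp4 have 2 each, none held the HNF1 or HNF4 letters in full. The FOXA letters were in the other Fetub window, not shown, 236 bases before that start, in a window of Apoa2 at 77 bases and in one of Rbp4 at 241 bases. Windows not shown also held the C/EBP letters, in Apoa2 at 140 and 164 bases and in Rbp4 at 128 bases. They held TATAAA in Apoa2 at 212 bases and in Rbp4 at 28 bases. Windows were found for 7 of the 10 members, and none for Ttr, Trf and Serpina6. A match is a description of the letters and not a binding site.

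Pon1, which encodes the paraoxonase that protects HDL and low-density lipoprotein lipids from oxidation, was the member that differed most between groups. In HFM livers its lowest level was 10.55 (mouse HFM6), its median 10.84 and its highest 11.19 (HFM5), and in HFS livers the lowest was 11.01 (HFS5), the median 11.22 and the highest 11.39 (HFS4). All 7 HFM mice lay below the HFS mean and 6 of 7 lay below every HFS mouse, with HFM5 the exception. Over all tested probe sets, 0.342% had at least 6 of 7 HFM mice below every HFS mouse.

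The mean Pon1 level was 10.84 ± 0.19 (SD, n = 7) in HFM and 11.20 ± 0.14 (SD, n = 7) in HFS mice. The difference was -0.36 (SE 0.09, 95% interval -0.54 to -0.18), or 1.28-fold lower in HFM, with an unadjusted limma p of 0.000525 and an adjusted p of 0.714. A two-sided exact permutation test over all 3432 assignments of mice to groups gave p = 0.00291, where the smallest p it can give is 0.000583, and 0.756 after adjustment over all probe sets. Pon1 also stands in a list of inflammatory response genes that the study built from these arrays, so its call is not independent evidence of a direction. Its paralogs and genomic neighbours Pon3 and Pon2, which encode related lactonases, differed by -0.08 (SE 0.09, adjusted p = 0.896 by limma) and 0.03 (SE 0.07, adjusted p = 0.959).

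**Figure D1:**
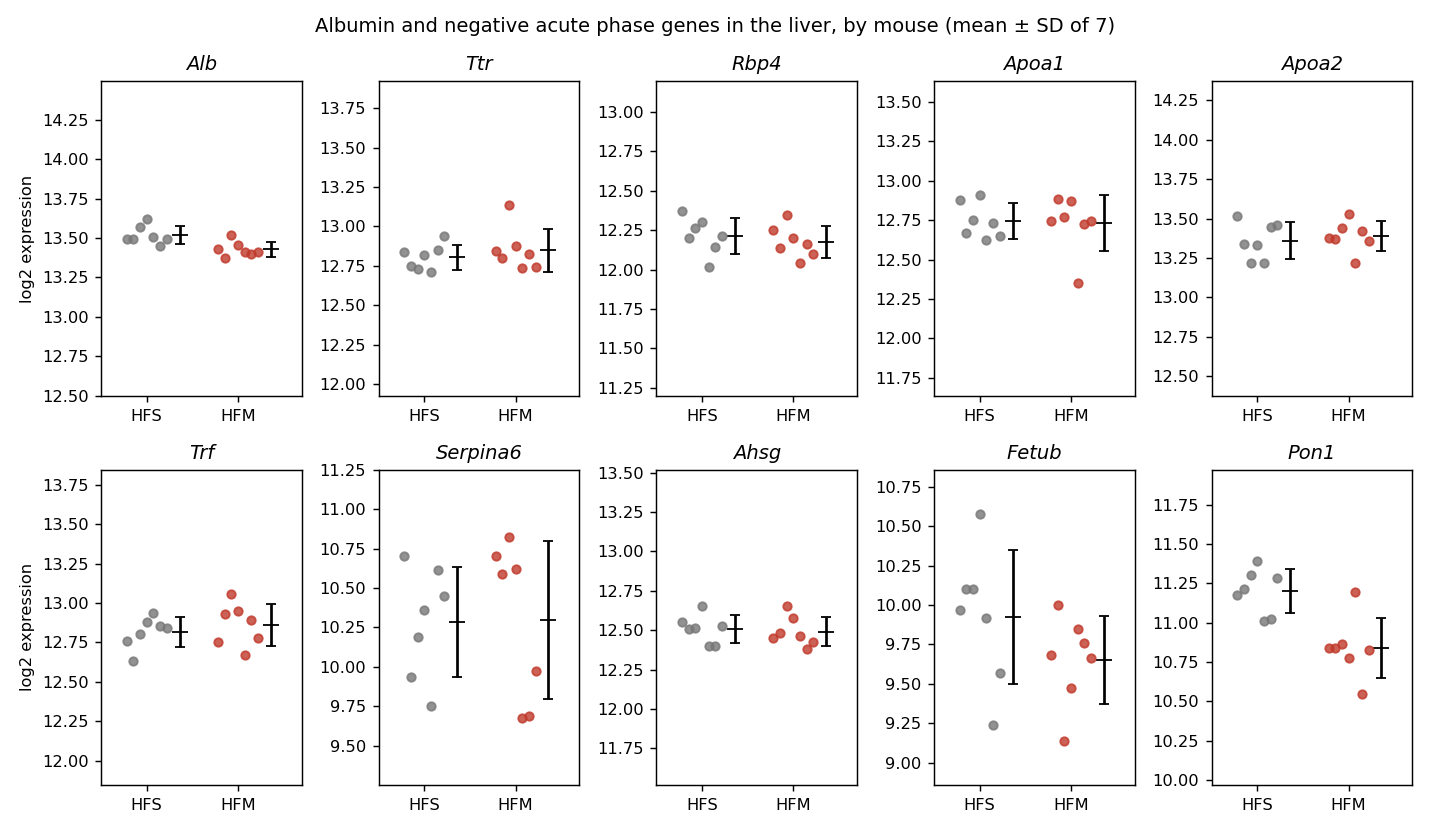
Log2 expression of each of the 10 members (1 panel per gene, y axis in log2 units with every panel spanning 2 log2 units), with 1 point per mouse for HFS (grey) and HFM (red) and, beside the points, the mean ± SD of 7 mice. The groups separate best for Pon1, where 6 of 7 HFM points lie below every HFS point, and the points of Alb lie closest together.

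Alb encodes serum albumin, the main protein of plasma and a carrier of fatty acids and many drugs. Its level was 13.37 (HFM2) at the lowest, 13.41 at the median and 13.52 (HFM3) at the highest in HFM livers, and 13.45 (HFS6), 13.49 and 13.62 (HFS4) in HFS livers. All 7 HFM mice lay below the HFS mean and 5 of 7 below every HFS mouse, as at least 5 of 7 did for 1.76% of all probe sets. The means were 13.43 ± 0.05 and 13.52 ± 0.06 (SD, n = 7 each), a difference of -0.09 (SE 0.05, 95% interval -0.20 to 0.02), and the limma p was 0.0980 (adjusted p = 0.801).

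The tests disagreed for Alb because limma widens the error of a gene with so small a spread toward that of other genes. The two-sided exact permutation test gave p = 0.00816 (0.756 after adjustment over all probe sets), and the test on each probe set alone gave an unadjusted p of 0.00740. An exact permutation p under 0.01 with a lower HFM mean was reached by 0.632% of all probe sets. With quantile normalization between arrays, the Alb difference shrank to -0.01. It was -0.06 with the median of each array subtracted.

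Alb and Apoa2 were the members read nearest to the top of the scale. The highest deposited value was 14.06, 10 probe sets had a mean within 1 log2 unit of it, and 2 of these were members, Alb (0.59 below it) and Apoa2 (0.69 below it). The other 8 members lay 1.23 (Trf) to 4.28 (Fetub) below it. The within-group SD of Alb was 0.053, against a median of 0.163 over the 200 probe sets nearest in mean, nearly all of which are dimmer. Apoa2 (0.107), Ahsg (0.091), Rbp4 (0.108), Ttr (0.111), Trf (0.117) and Apoa1 (0.148) were also below the median of their 200 nearest, 0.163. Fetub (0.361 against 0.169) and Serpina6 (0.431 against 0.167) were well above theirs, and Pon1 (0.167 against 0.165) was level with it. A probe set near saturation reads true differences as smaller than they are, and whether that touches Alb and Apoa2 was not tested.

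**Figure D2:**
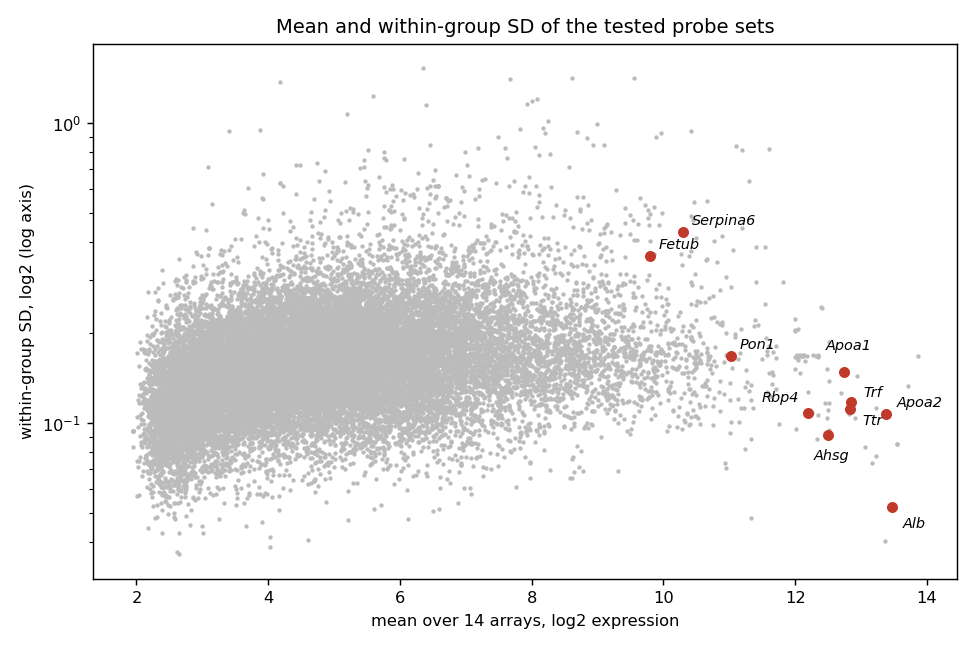
Mean over 14 arrays (x axis, log2 expression) against the within-group SD (y axis, log2 units on a log scale) for the 23410 tested probe sets in grey and the 10 members in red. Alb and Apoa2 lie within 1 log2 unit of the highest value, 14.06, and Alb has an SD of 0.053 while Serpina6 has one of 0.431.

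None of the carriers of small ligands passed the test. Ttr, which encodes transthyretin, the carrier of thyroxine and of the retinol-binding protein complex, ranged from 12.73 to 13.13 with a median of 12.82 in HFM and from 12.71 to 12.94 with a median of 12.82 in HFS livers. Its difference was 0.04 (SE 0.07, 95% interval -0.10 to 0.19, adjusted p = 0.921 by limma). Rbp4, which encodes the retinol carrier that travels bound to transthyretin, ranged from 12.04 to 12.35 (median 12.16) in HFM and from 12.02 to 12.37 (median 12.21) in HFS livers. Its difference was -0.04 (SE 0.07, 95% interval -0.18 to 0.10, adjusted p = 0.931 by limma). The ranges of Rbp4 overlapped nearly in full, and those of Ttr did apart from HFM3, which lay above every HFS mouse.

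Trf encodes transferrin, the iron carrier of plasma, and its level ran from 12.67 to 13.06 (median 12.89) in HFM and from 12.63 to 12.94 (median 12.84) in HFS livers. The difference was 0.05 (SE 0.07, 95% interval -0.10 to 0.19, adjusted p = 0.922 by limma). Serpina6 encodes corticosteroid-binding globulin, the carrier of glucocorticoids, and had the widest spread of the 10 genes. Its level ran from 9.67 (HFM5) to 10.83 (median 10.59) in HFM and from 9.75 to 10.70 (median 10.36) in HFS livers. The difference of 0.01 (SE 0.19, adjusted p = 0.996 by limma) had a 95% interval of -0.39 to 0.41, which spans 0.76 to 1.33 times the HFS level, so changes within that range were not excluded.

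Apoa1 and Apoa2, which encode the structural apolipoproteins of HDL, did not pass the test either. Apoa1 ran from 12.35 (HFM5) to 12.89 (median 12.75) in HFM and from 12.63 to 12.91 (median 12.73) in HFS livers, a difference of -0.02 (SE 0.08, 95% interval -0.18 to 0.15, adjusted p = 0.979 by limma). Apoa2 ran from 13.22 to 13.53 (median 13.38) in HFM and from 13.22 to 13.52 (median 13.34) in HFS livers. Its difference was 0.03 (SE 0.07, 95% interval -0.11 to 0.17, adjusted p = 0.956 by limma). Of the apolipoprotein genes next to Apoa1, Apoc3, an inhibitor of lipoprotein lipase, differed by 0.02 (adjusted p = 0.974 by limma), Apoa4 by 0.42 (adjusted p = 0.824) and Apoa5, which promotes triglyceride clearance, by -0.16 (adjusted p = 0.832).

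The fetuins are neighbouring genes that encode cystatin-family plasma proteins, and their members differed in spread. Ahsg, which encodes fetuin-A, an inhibitor of calcification, ran from 12.38 (HFM6) to 12.65 (median 12.46) in HFM and from 12.40 to 12.65 (median 12.52) in HFS livers. The groups overlapped, with a difference of -0.02 (SE 0.06, 95% interval -0.15 to 0.11, adjusted p = 0.969 by limma). Fetub, which encodes fetuin-B, a proteinase inhibitor needed for fertilization, ran from 9.14 (HFM3) to 10.002 (HFM2, median 9.68) in HFM and from 9.24 (HFS6) to 10.58 (HFS4, median 9.97) in HFS livers.

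For Fetub, 6 of 7 HFM mice lay below the HFS mean but 1 of 7 lay below every HFS mouse. The difference was -0.27 (SE 0.16, 95% interval -0.61 to 0.07, adjusted p = 0.808 by limma), and the two-sided exact permutation p was 0.181. One library decided whether it passed: without HFS6 the difference was -0.39 and passed an unadjusted p of 0.05 (adjusted p = 0.825 by limma). The next genes along, Hrg, Kng2 and Kng1, which encode histidine-rich glycoprotein and kininogens, differed by -0.09 (SE 0.10), 0.07 (SE 0.09) and 0.04 (SE 0.07).

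**Figure D3:**
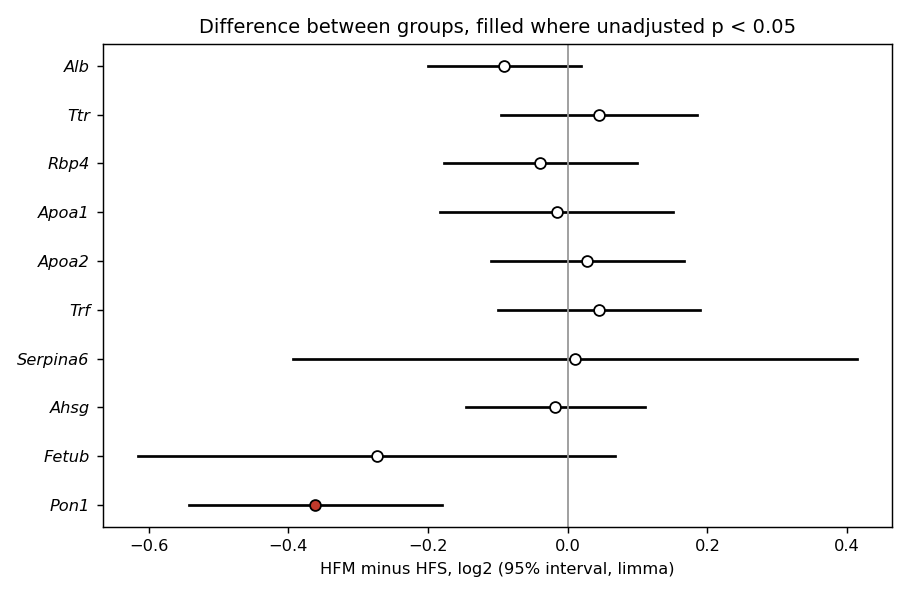
Difference HFM minus HFS in log2 units (x axis) for each of the 10 members (y axis), with points at the limma estimate (filled where the unadjusted p was under 0.05) and lines for the 95% interval. The interval of Pon1, -0.54 to -0.18, is the one that excludes 0, and the widest, that of Serpina6, runs from -0.39 to 0.41.

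Across the 10 members, 4 differences were above 0 and 6 below, with a median of -0.02 against 0.00 over all probe sets. Neither was stable: with the median of each array subtracted 6 were above 0 and 4 below, with a median of 0.01 against 0.03 over all probe sets, and over left-out mice the median ran from -0.06 (without HFM3) to 0.02 (without HFM5). At an unadjusted limma p of 0.05, 0 members were higher in HFM and 1 was lower, Pon1, where 3.57% of all probe sets were called higher and 2.90% lower. The study's methods filter at p under 0.01 and 1.2-fold, and also state a Bonferroni correction. With that p taken as unadjusted and no Bonferroni correction, 1 member was lower and 0 were higher. These cut-offs called 0.243% of all probe sets lower and 0.453% higher. No probe set passed an adjusted p of 0.05 by the Benjamini-Hochberg method. A count of 1 gene is a result about Pon1 and not about the set.

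Positive acute phase genes were mostly higher in HFM in the same livers, but none passed an adjusted p of 0.05. Of 29 measured, 27 had a difference above 0 and 11 were higher in HFM at an unadjusted limma p of 0.05, with 0 lower and a median difference of 0.28. Over all probe sets, 3.57% were called higher and 2.90% lower. The mean level of the 29 genes ran from 9.26 to 9.705 in HFM and from 8.63 to 9.735 (HFS5) in HFS mice. Thus 0 HFM mice lay above every HFS mouse. Saa1, which encodes a serum amyloid A, ran from 7.52 (HFM5) to 9.59 (HFM7, median 9.02) in HFM and from 4.22 (HFS4) to 9.28 (HFS5, median 6.43) in HFS livers, so the groups overlapped. The difference was 2.21 (SE 0.61, adjusted p = 0.714 by limma, two-sided exact permutation p = 0.0122). Saa1 and Saa2 are close copies whose probe sets may share signal. Hp (haptoglobin, which binds free haemoglobin) differed by 0.27 (adjusted p = 0.770 by limma), Hpx (hemopexin, which binds haem) by 0.29 (adjusted p = 0.768) and Orm2 (an orosomucoid) by 1.16 (adjusted p = 0.761), all among the 11. The smallest p of the list was that of Saa3 (0.81, SE 0.15, adjusted p = 0.482 by limma). The lowest difference was that of Hamp (-0.22), which did not pass. Leaving out each mouse in turn moved the count of 11 between 8 and 17, with 17 without HFS5 and 16 without HFM1, and with quantile normalization it was 9.

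Since Saa1 varied widely among the HFS mice, the members were also fitted against the Saa1 level of each mouse, with group in the model. The slope is then the change in log2 level per log2 unit of Saa1 among mice of the same group. At an unadjusted p of 0.05, 0 members had a slope above 0 and 2 had a slope below it, where 2.11% of 23409 probe sets were called above and 1.93% below (4.04% in all). An adjusted p of 0.05 was passed by 0.0171% of probe sets, and these were Saa2, Lcn2, Orm2 and Cyp1a2, none of them members.

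Pon1 had a slope of -0.087 (SE 0.027, 95% interval -0.14 to -0.030, adjusted p = 0.931 by limma). Among HFS mice, the 2 with the lowest Saa1, HFS4 (4.22) and HFS3 (4.47), had the highest Pon1, 11.39 and 11.30, and the 2 with the highest Saa1, HFS5 (9.28) and HFS6 (8.25), had the lowest, 11.01 and 11.03. Among HFM mice, HFM5 had the lowest Saa1 (7.52) and the highest Pon1 (11.19), and the others had Saa1 between 8.28 and 9.59 and Pon1 between 10.55 and 10.86. With Saa1 as a covariate, a fit added after the data were seen, the Pon1 difference between groups was -0.17 (SE 0.09, 95% interval -0.36 to 0.03, adjusted p = 0.999 by limma). It no longer passed an unadjusted p of 0.05. Saa1 was itself 2.21 higher in HFM and was read from the same arrays, after the treatment. Whether Saa1 accounts for the difference of any member was not tested.

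Fetub had a slope of -0.13 (SE 0.056, 95% interval -0.25 to -0.016, adjusted p = 1.00 by limma), and it rested on single HFS mice: without HFS4 it was -0.079 and without HFS6 -0.088, neither past an unadjusted p of 0.05. Over all left-out mice the Fetub slope ran from -0.21 to -0.079, so it also became steeper. With Saa1 as a covariate the Fetub difference was 0.02 (SE 0.19). The slopes of Alb (-0.020), Ahsg (-0.036) and Rbp4 (-0.030) were below 0 and did not pass. Those of Ttr (0.003), Apoa1 (-0.006), Apoa2 (0.013), Trf (0.021) and Serpina6 (-0.013) did not pass either. For comparison, 13 of 28 positive acute phase genes had a slope above 0 that passed and 1 had one below, with a median of 0.09. Of the 10 hepatocyte enzymes, 4 had a slope above 0 that passed and 0 one below, with a median of 0.07. Over all probe sets, 2.11% were called above 0 and 1.93% below. The mean enzyme level was 10.06 in HFS4 and 10.28 in HFS3, the HFS mice with the lowest Saa1. It was 10.48 to 10.71 in the other HFS mice. Whether the slopes of these lists hold without single mice was not tested.

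**Figure D4:**
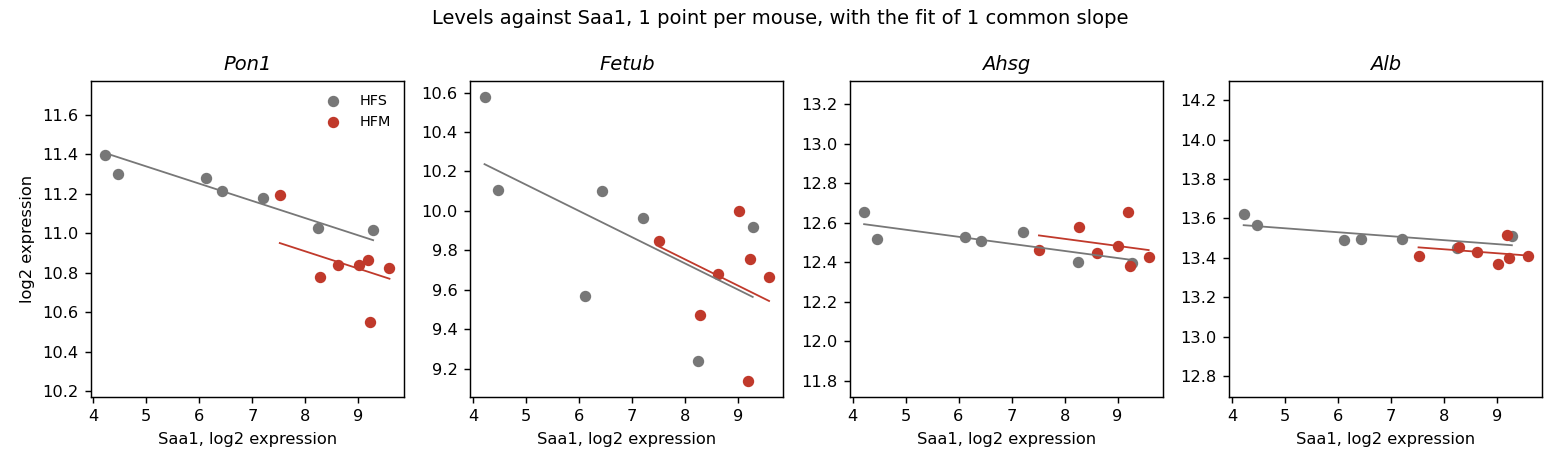
Log2 level of Pon1, Fetub, Ahsg and Alb (y axes, each panel spanning the same number of log2 units) against the log2 level of Saa1 (x axis), with 1 point per mouse (HFS grey, HFM red) and lines for the fit with a slope common to both groups. Pon1 runs from 11.39 in HFS4 to 10.55 in HFM6, while the points of Alb form a nearly flat band between 13.37 and 13.62.

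Markers of other liver cells were also examined. All 12 Kupffer cell and macrophage markers were above 0 in the comparison of groups, 5 of them at an unadjusted limma p of 0.05, with a mean marker level of 6.62 to 7.62 in HFM and 6.33 to 7.37 in HFS mice. The count of 5 was 2 without HFM2, HFM6 or HFS7, 3 without HFS4 and 9 without HFS5. All 12 had slopes on Saa1 above 0, and 10 of them passed, where 2.11% of all probe sets were called above 0. Among HFS mice, the mean marker level was 7.37 in HFS5 and 7.06 in HFS6, which had the highest Saa1. It was 6.33 to 6.55 in the other HFS mice. Whether these slopes hold without single mice was not tested. Of 9 neutrophil markers, 9 were above 0 and 1 passed, but a single mouse carried this, since the mean marker level was 5.04 in HFM2 and 3.47 to 4.18 in the other 13 mice, and the median difference of 0.23 was -0.05 without HFM2. Of 9 lymphocyte markers, 1 (Cd79a, of B cells, -0.24, adjusted p = 0.768 by limma) was lower and 0 were higher. Cd79a read 3.18 in HFM and 3.42 in HFS mice, below the array medians, and the count lower was 0 with the median of each array subtracted and without HFM2, HFM6, HFM7, HFS1, HFS2 or HFS4, and 2 without HFS5. Whether cell content plays a part in the Pon1 difference was not tested.

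Few genes of the pathways in which the members act passed the test. Of 17 genes of HDL metabolism, 12 were above 0, 5 below and 0 passed an unadjusted p of 0.05 in either direction, with a median difference of 0.03. With quantile normalization, and without HFM3, HFS2 or HFS6, 1 of them was lower. Among them Apom, an HDL carrier of sphingosine 1-phosphate, differed by -0.26 (SE 0.15, adjusted p = 0.797 by limma), Scarb1, the HDL receptor, by 0.15 (SE 0.09, adjusted p = 0.808) and Lcat, which esterifies HDL cholesterol, by -0.11 (SE 0.07, adjusted p = 0.826). Of 15 genes for receptors and enzymes that handle the ligands of the carriers, 1 was higher, Tfr2, a transferrin receptor that senses iron (0.18, SE 0.07, adjusted p = 0.767 by limma), and 0 were lower. The count of 1 was 2 or 3 without HFM1, HFM2, HFM3, HFM5, HFS1, HFS2, HFS5 or HFS7, and 3 with the median of each array subtracted.

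Of 25 other secreted plasma proteins, 2 were higher at an unadjusted p of 0.05 and 0 lower, with a median of 0.03. The count of 2 was 0 without HFM3 or HFS2, 1 without HFM2, HFM4 or HFS3, 5 without HFM5 or HFS4, and 4 with the median of each array subtracted, and quantile normalization gave 1 lower beside 2 higher. The 2 genes were Ambp, the precursor of alpha-1-microglobulin and bikunin (0.21, SE 0.08, adjusted p = 0.768 by limma), and Serpinf2, the plasmin inhibitor (0.16, SE 0.07, adjusted p = 0.770). Afp, the fetal relative of albumin that lies in the same gene cluster, had mean levels of 3.59 (HFM) and 3.66 (HFS; adjusted p = 0.876 by limma), below the array medians in both. Of 21 hepatocyte transcription factors, 1 was higher, Stat5a (0.16, SE 0.08, adjusted p = 0.772 by limma), and 0 lower; with quantile normalization 0 were higher and 1 lower, and over left-out mice 0 (as without HFM2) to 3 (without HFM5) were higher and 0 to 2 (without HFM1) lower. Hnf4a, a master regulator of hepatocyte genes, differed by 0.07 (SE 0.09, adjusted p = 0.901 by limma) and Foxa1 by -0.25 (SE 0.12, adjusted p = 0.786).

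**Figure D5:**
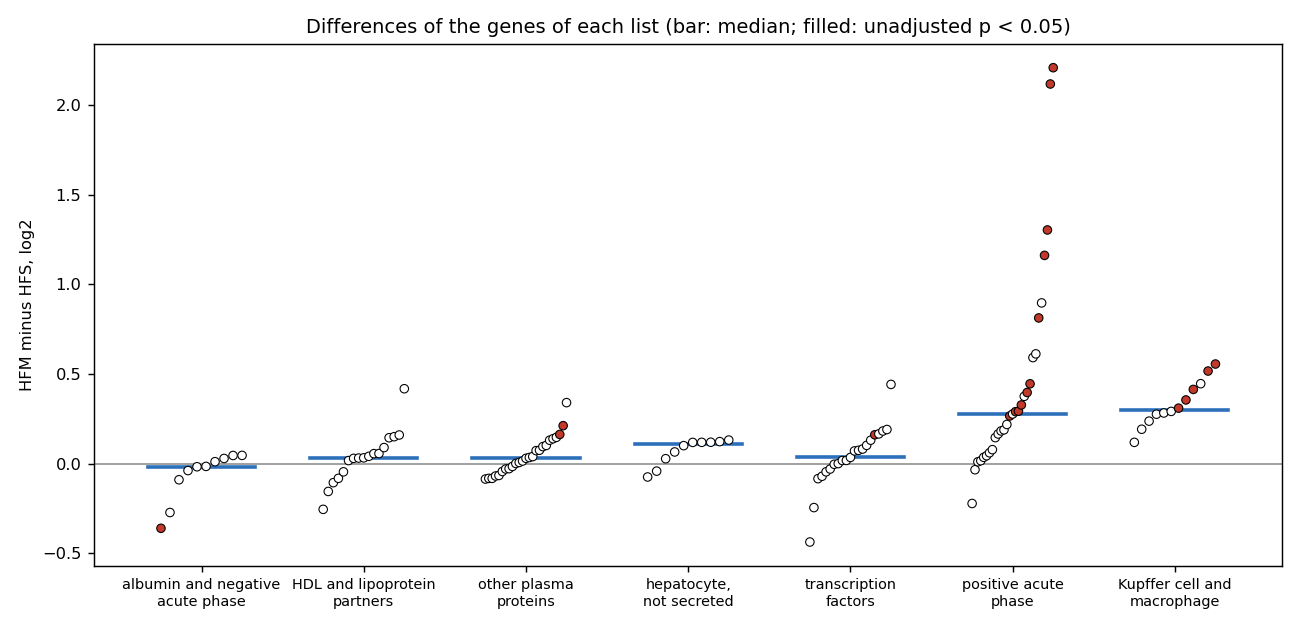
Differences HFM minus HFS in log2 units (y axis) for the genes of 7 lists (x axis), with 1 point per gene, filled where the unadjusted p was under 0.05, and a bar at the list's median. The members centre on -0.02, the positive acute phase genes on 0.28 and the Kupffer cell markers on 0.30.

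The members varied together only in part. After the group mean was subtracted, 34 of the 45 pairs of members correlated above 0 over the 14 mice and 11 below, with a median r of 0.36. The highest was 0.76, between Alb and Ahsg, and the lowest -0.60, between Ttr and Fetub. HFM5 was the lowest HFM mouse in 6 of 10 members and HFS5 the lowest HFS mouse in 7 of 10, while HFM3 was the highest HFM mouse in 6. Bright probe sets in general did the same for HFM5, the lowest HFM mouse in 52 of the 100 brightest, and less so for HFS5, the lowest HFS mouse in 22 where HFS2 was in 47. After quantile normalization HFM5 was the lowest in 1 member and HFS5 in 4. The correlations are descriptions, since the members were read from the same arrays and scaled together.

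For the 3 members with the widest spread within groups, the most similar genes of 19937 were named by Pearson r over the 14 mice after the group mean was subtracted. For Serpina6 they were Uba7 (r = 0.92), Pctp (r = 0.90) and Vegfa (r = 0.88). For Fetub they were Xbp1 (r = 0.92), Mocs1 (r = 0.90) and its near neighbour Hrg (r = 0.89). For Pon1 they were Pi15 (r = 0.89), Krtap19-5 (r = 0.86) and Angptl1 (r = 0.84), all of which read below the array medians. Each is the highest of very many values and is given without a test.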

How the data were processed

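Liver RNA of 14 mice was measured with 1 array per mouse. The authors summarized the arrays in Affymetrix Expression Console and deposited normalized log2 values for each probe set; the labels name RMA and the paper's methods PLIER. The build of the array annotation is not given in the sources used here, and the vehicle is called saline in the labels and PBS in part of the methods. The 14 value columns all entered (0 were left out), with groups from the labels.

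From the deposited log2 values, R 4.3.3 with limma 3.58.1 (lmFit, eBayes) gave HFM minus HFS over the 23410 probe sets with a gene symbol, of 35556 in the table (21789 had 1 symbol, 1621 several and 12146 none). Benjamini-Hochberg adjustment ran over all 23410. No signal filter was set, and the number of arrays limits the precision. The slope on Saa1 came from the same model with Saa1 added and its own probe set left out. Exact permutation tests were two-sided and run in Python 3.11.15. For each gene the probe set with the highest mean was used. Promoter windows and gene order are RefSeq's (GRCm38.p6). Scripts were tested on simulated data.

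The members and the gene lists were chosen with earlier results of these data known. Genes named are all members, the 4 genes of smallest p in a list (not all are printed), Saa1, Saa2, Afp and Hnf4a, the 3 genes most like each of 3 members, and genomic neighbours. Genes behind a small count, such as Hp, Hpx, Cyp1a2 and Pon3, fall outside that rule or its first part and were named after their values were seen. Alternatives were quantile normalization, median centring, a block for the replicate number, 3 other choices of probe sets, a trended and robust prior, an unmoderated test, array weights, the mean of the positive acute phase genes in place of Saa1, and each mouse left out. Saa1 as a covariate of the group difference was added after the data were seen. Lists not described in the report gave these counts at an unadjusted p of 0.05: of 6 sinusoidal endothelial markers 1 was higher (0 to 2 over left-out mice), of 8 stellate cell markers 1 was higher (0 to 5), and of 4 bile duct markers and 1 red cell marker 0 passed.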

Additional observations from a re-analysis of the deposited data

Results flagged for a closer look

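In 2 of the 20 groups of 7 mice examined (10 members in 2 treatment groups), a single mouse stood apart from the rest by its gap to the nearest mouse over the group's range, a criterion that flags about 1 in 20 groups by chance. Ttr in HFM3 was 13.13, the highest HFM value, with a gap of 0.651 of the range, and without HFM3 the Ttr difference was -0.0025 instead of 0.04 (neither passed). HFM3 also had the lowest array weight of the 14, 0.409. Apoa1 in HFM5 was 12.35, the lowest HFM value, with a gap of 0.7 of the range, and without HFM5 the Apoa1 difference was 0.05 instead of -0.02 (neither passed).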

How the results depend on the processing

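The call of Pon1 held under all alternatives but the Saa1 covariate: its difference ran from -0.42 to -0.31 over the left-out mice, with adjusted p values no lower than 0.0737. The count of members lower at an unadjusted p of 0.05 was 2 with the unmoderated test (Alb joined), 0 with Saa1 as a covariate and 1 to 2 over left-out mice (2 without HFS6, where Fetub joined). The count past the methods' p and fold cut-offs, without their Bonferroni correction, was 0 with Saa1 as a covariate. The count of slopes below 0 was 1 with the unmoderated test, 1 with the mean of positive acute phase genes and 1 to 2 over left-out mice (1 without HFS4 or HFS6); in each case Fetub was lost. Signs turned only for members whose difference or slope was near 0, and for Fetub. With quantile normalization the differences were 0.038 for Apoa1 and -0.028 for Serpina6. With median centring they were 0.011 for Apoa1 and 0.0093 for Ahsg, and with array weights 0.00039 for Apoa1. With Saa1 as a covariate they were 0.027 for Rbp4, -0.0012 for Apoa2, -0.00066 for Trf, 0.061 for Ahsg and 0.021 for Fetub. Turned slopes were 0.0067 for Apoa1 with quantile normalization, -0.0024 for Ttr with array weights and -0.053 for Ttr with the mean of positive acute phase genes. Over left-out mice the differences ran from -0.0025 to 0.067 for Ttr, -0.042 to 0.047 for Apoa1, -0.079 to 0.11 for Serpina6 and -0.045 to 0.0062 for Ahsg, and the slopes from -0.0065 to 0.023 for Ttr, -0.031 to 0.019 for Apoa1, -0.0019 to 0.051 for Apoa2 and -0.056 to 0.091 for Serpina6. The cause was not tested. Mice with the same replicate number deviated together by r of -0.20 to 0.14, and 0 of 7 matched their own number best. No shared deviation by number was seen, which cannot settle whether the design paired the mice. With the replicate number as a block Pon1 differed by -0.36 (adjusted p = 0.855 by limma, still past an unadjusted p of 0.01). With this block the count of lower members stayed at 1, and the slopes of Apoa1 and Serpina6 turned to 0.047 and 0.11.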
